A study of Mus musculus with 12 samples.

Results

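The genes described here are 10 microbial pattern recognition receptors and partners: the Toll-like receptor genes Tlr2, Tlr3, Tlr4, Tlr7 and Tlr9, the coreceptor gene Cd14, the adaptor gene Myd88, the cytosolic receptor genes Nod1 and Nod2, and the peptidoglycan recognition protein gene Pglyrp1. They were chosen by name, not by their values, though with earlier results of these data known. All 10 were among the 41388 genes of a count table of RNA sequencing of the medial prefrontal cortex (PFC). The 12 libraries came from male Swiss Webster mice aged 10 weeks. The groups were 4 libraries of conventionally raised mice (CON), 4 of germ-free mice (GF), which were kept in isolators without microbes, and 4 of exGF mice, which were raised germ-free and moved out of the isolators on postnatal day 21 to take up microbes. No transgene or drug is named for any group. Each library held polyA RNA pooled from 2 to 3 animals, so every spread given below is a spread between pools. The 4 columns of the exGF group are called GFR1 to GFR4 in the table and are not tied to single exGF samples.

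Pattern recognition receptors bind conserved parts of microbes. Toll-like receptors at the cell surface bind lipopeptides or, with CD14, lipopolysaccharide, and those in endosomes bind RNA or DNA. Most Toll-like receptors pass their signal through the adaptor MYD88 to NF-kB, while NOD1 and NOD2 bind fragments of peptidoglycan inside the cell and signal through RIPK2 to the same factor. In the brain these genes are known mainly from microglia and border macrophages, with TLR3 also in astrocytes. Fragments of bacterial cell wall from the gut are known to reach the blood and the brain.

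Short stretches from upstream of 4 members are shown because they hold letters that NF-kB and the interferon regulatory factors, which act downstream of these receptors, are known to bind. Within 250 bases upstream of the RefSeq start (GRCm38.p6), 8 promoters of 7 members could be searched, and Tlr4, Tlr7 and Cd14 were not in the promoter table. The kB motif, GGGAN followed directly by TTNCC and searched on both strands like the others, was in 3 of these 8 promoters and in 0.980% of 32851 promoters of all genes. The interferon response motif, GAAAN followed directly by NGAAA, was in 1 of 8 (2.98% of all), and the PU box GAGGAA, known from the myeloid factor PU.1, was in 2 of 8, those of Tlr9 and Pglyrp1 (23.3% of all). The matches with 10 bases on each side are given 5′ to 3′ on the strand of the gene, with the match in capitals.
Tlr2: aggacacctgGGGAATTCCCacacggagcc
Tlr3: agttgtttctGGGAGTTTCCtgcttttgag
Pglyrp1: ggtctgggtcGGAAAGTCCCgcccaggtgt
Myd88: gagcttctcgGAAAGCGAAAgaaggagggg
The Tlr2 match lies at chr3:83841761-83841790 (minus strand), starting 172 bases upstream, and the Tlr3 match at chr8:45410572-45410601 (minus strand), starting 211 bases upstream. The Pglyrp1 match, which reads as the motif on the opposite strand, lies at chr7:18884587-18884616 (plus strand), starting 93 bases upstream, and the Myd88 interferon motif at chr9:119340039-119340068 (minus strand), starting 40 bases upstream. Some GENCODE M21 transcripts of these genes start further upstream than RefSeq's, so that the Tlr3 and Myd88 stretches fall within an untranslated exon, the Tlr2 stretch reaches the edge of one, and the Pglyrp1 stretch falls within an intron. The matches describe letters in these windows and were not tested as binding sites.

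All 10 transcripts were found in every library, at low levels. Counts on genes per library ran from 22757169 to 29134760 in CON (median 25210592), from 13280926 to 23465074 in GF (median 18818716) and from 22702599 to 28615407 in exGF (median 26345712). The 10 members held 0.00332% to 0.00377% of them, and single members had 7 to 365 counts per library. Counting error alone then gives a coefficient of variation (CV) of 5.52% to 30.1% within a group. The observed CV between pools ran from 5.0% to 55.8%, and it was below the counting CV in 7 of the 30 member-by-group cases.

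Levels of different genes were compared as FPKM, counts scaled for the depth of the library and the exon length of the gene. Tlr3, the receptor for double-stranded RNA, was the highest at 2.47 ± 0.339 FPKM (SD, n = 12 libraries), above 38.6% of the 16032 genes that passed the filter on low counts. Myd88 was next at 2.09 ± 0.282 FPKM, and Tlr3 was above it in 7 of 12 libraries, so these neighbours were within each other's spread. Pglyrp1 followed at 1.72 ± 0.377 FPKM and Cd14 at 1.23 ± 0.294 FPKM. Nod1, at 0.908 ± 0.176 FPKM, and Tlr7, the receptor for single-stranded RNA, at 0.901 ± 0.145 FPKM, were ordered either way in 6 of 12 libraries each. The clear step in the order came below Tlr7, which was above Tlr9, the receptor for CpG DNA, in 12 of 12 libraries without overlap of their ranges. Tlr9 was at 0.367 ± 0.0819 FPKM, Tlr2 at 0.290 ± 0.0738 FPKM, Tlr4 at 0.196 ± 0.0696 FPKM and Nod2 at 0.148 ± 0.0317 FPKM. Nod2 was above only 3.14% of the genes kept. Every other pair of neighbours overlapped in range, with the upper member higher in 8 to 10 of 12 libraries for the pairs not yet given.

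**Figure D1:**
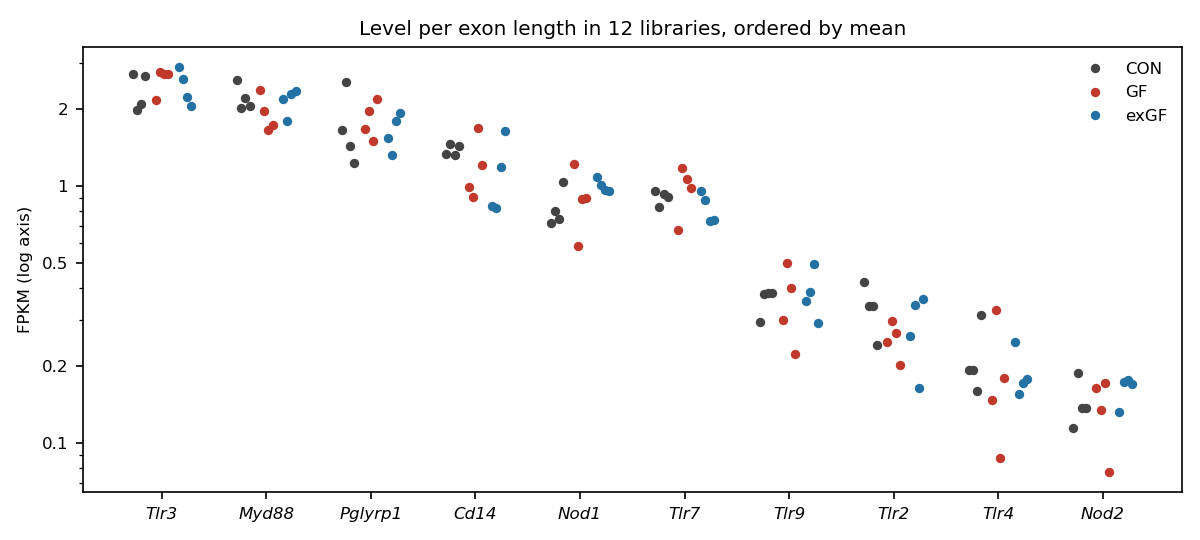
Level per exon length of each member in the 12 libraries, in FPKM on a log axis, ordered by the mean over libraries. Each point is a library, coloured by group. The groups overlap for every member, and the gap between Tlr7 (0.901 FPKM) and Tlr9 (0.367 FPKM) is the only one between neighbours that no library crosses.

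None of the 10 members differed between groups by the test. The comparisons ask whether the PFC of mice without microbes, or with microbes only from weaning on, holds other amounts of these receptor transcripts than that of conventional mice. Each gene was tested with edgeR's quasi-likelihood method and p was adjusted by Benjamini-Hochberg over all genes, with a call at an adjusted p under 0.1. By this rule 0 of 10 members were called in GF against CON, where 0.251% of 15542 genes were (0.116% higher and 0.135% lower in GF). In exGF against CON 0 of 10 were called against 0.0696% of 15813 genes (0.0253% higher and 0.0443% lower in exGF), and in exGF against GF 0 of 10 against 0% of 15569 genes. At these background shares no call was likely among 10 genes, so the counts at an unadjusted p under 0.05 are given too: 0 of 10 members in each comparison, against 8.69%, 5.33% and 6.65% of all genes. The values of 2 groups did not overlap for 0 of 10 members in each comparison, against 5.08%, 3.31% and 3.32% of all genes. At these shares too, few or none of 10 genes would pass, so these counts do not set the members apart from other genes. Adjusted p in edgeR's test ran from 0.762 upwards in GF against CON, from 0.952 in exGF against CON and from 0.804 in exGF against GF. The comparisons share their groups in pairs, so they are not independent of each other.

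The size of change that these data leave possible is given by the 95% intervals. In GF against CON the members' log2 fold changes ran from -0.39 (Tlr2) to 0.14 (Tlr3), with 5 higher and 5 lower and a median of -0.04, beside 0.01 over all genes tested. In exGF against CON they ran from -0.30 (Cd14) to 0.28 (Nod1), with 4 higher and 6 lower and a median of -0.05, beside -0.01 over all genes. In exGF against GF they ran from -0.26 (Tlr7) to 0.27 (Nod2), with 5 higher and 5 lower and a median of 0.03, beside 0.00 over all genes. No interval reached beyond 0.482-fold to 1.59-fold in GF against CON, 0.524-fold to 1.73-fold in exGF against CON, or 0.572-fold to 1.95-fold in exGF against GF. In each comparison the 2 narrowest intervals were those of Tlr3 and Myd88 and the 3 widest those of Nod2, Tlr4 and Tlr2, which had the fewest counts.

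**Figure D2:**
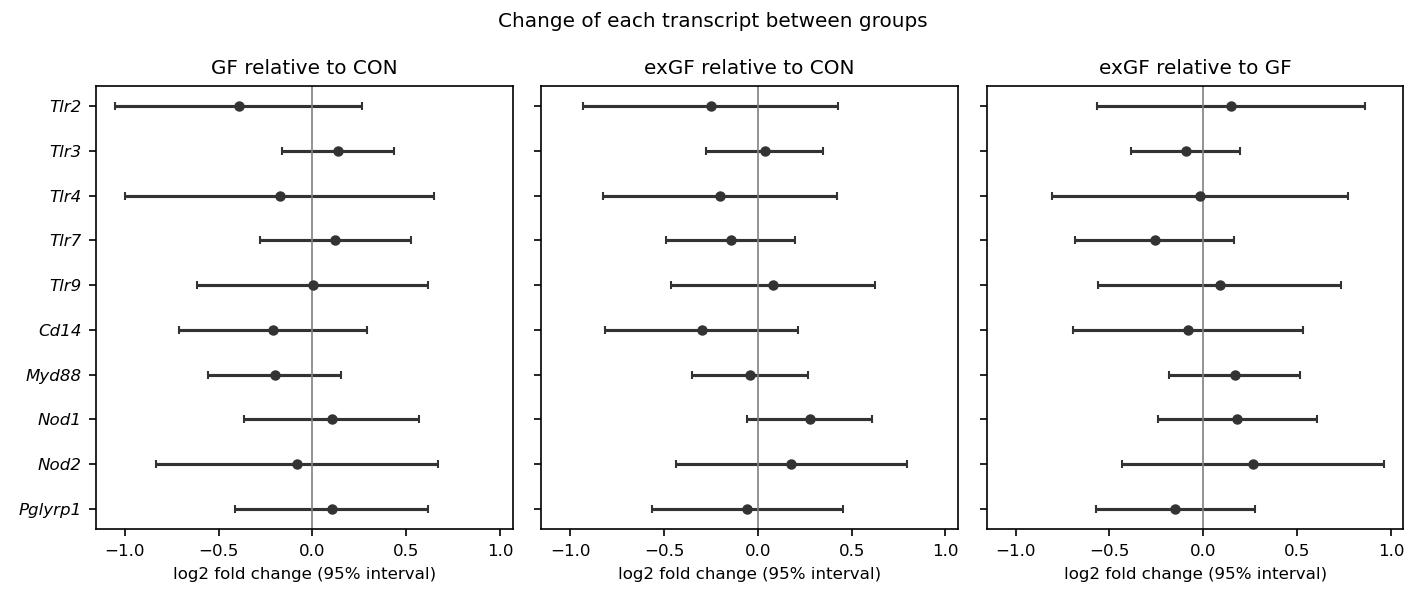
Log2 fold change of each member in the 3 comparisons. Points are the edgeR estimates and bars their 95% intervals; every bar crosses 0, and the estimates lie between -0.39 and 0.28.

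At the cell surface, Tlr2 encodes the receptor for bacterial lipopeptides (chr3:83836272-83841767, GRCm38, minus strand). Its level per library, in CPM (counts scaled for library depth by TMM), was 1.27, 1.02, 1.02 and 0.724 in CON, 0.744, 0.895, 0.806 and 0.606 in GF, and 0.787, 1.04, 0.495 and 1.09 in exGF. In GF 3 of the CON libraries lay above all 4 GF libraries and the 4th lay among them, while the exGF libraries spanned most of the range of both. Tlr2 had the estimate farthest from CON among the 10 members in GF, 0.762-fold of CON with a 95% interval of 0.482 to 1.20 (edgeR adjusted p = 0.762), and in exGF it was 0.840-fold of CON (interval 0.524 to 1.35).

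Tlr4, the receptor for lipopolysaccharide (chr4:66827584-66930284, plus strand), varied most between pools of 1 group. Its CPM was 1.07, 1.07, 0.887 and 1.75 in CON, 0.818, 1.84, 0.484 and 0.991 in GF, and 1.37, 0.864, 0.954 and 0.988 in exGF. Its highest and its lowest library were both GF libraries, with 41 and 9 counts. Tlr4 in GF was 0.886-fold of CON with an interval of 0.50 to 1.57, and in exGF 0.870-fold with an interval of 0.565 to 1.34 (edgeR adjusted p = 0.934 and 0.982).

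Cd14, whose protein hands lipopolysaccharide to TLR4 (chr18:36725067-36726798, minus strand), was evenly expressed in CON and scattered in the other groups. Its CPM was 2.3, 2.52, 2.29 and 2.48 in CON, 1.71, 1.57, 2.90 and 2.09 in GF, and 1.45, 1.43, 2.05 and 2.83 in exGF. In each of GF and exGF 3 libraries lay below all CON libraries and 1 lay above them all. The CON libraries had a CV of 5.0%, less than the counting CV of their 56 to 67 counts, so the evenness of CON is finer than counting error would usually give. Cd14 in GF was 0.866-fold of CON (interval 0.612 to 1.22, edgeR adjusted p = 0.846) and in exGF 0.813-fold (interval 0.569 to 1.16, edgeR adjusted p = 0.968). Without the high exGF library GFR4 the log2 change in exGF was -0.53, with an unadjusted p of 0.0379 and an edgeR adjusted p of 0.683.

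Among the receptors of endosomes, Tlr3 (chr8:45395665-45411080, minus strand) was measured most precisely, with 151 to 365 counts per library. Its CPM was 14.2, 10.3, 10.9 and 13.9 in CON, 11.2, 14.5, 14.2 and 14.2 in GF, and 15.1, 13.6, 11.6 and 10.6 in exGF. Each group held libraries near 11 and near 14 CPM. CON2, CON3, GF1, GFR3 and GFR4, at 10.3 to 11.6 CPM, had mitochondrial shares of 5.68% to 6.96% of their counts. All other libraries, at 13.6 to 15.1 CPM, had shares of 7.39% to 9.80%. The part of this share in the level of Tlr3 was not tested. Tlr3 in GF was 1.10-fold of CON with an interval of 0.895 to 1.35, and in exGF 1.03-fold with an interval of 0.826 to 1.27 (edgeR adjusted p = 0.823 and 0.997). An antisense transcript, Gm45542, shares 381 exon bases with Tlr3, and since pairs were counted without regard to strand its reads cannot be told from those of Tlr3.

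Tlr7 (chrX:167304929-167330558, minus strand) had its highest 3 libraries and its lowest library in GF. Its CPM was 3.90, 3.37, 3.79 and 3.70 in CON, 2.75, 4.79, 4.35 and 4.02 in GF, and 3.90, 3.59, 2.97 and 3.0 in exGF. The exGF libraries lay within or below the CON range, and the GF libraries lay on both sides. Tlr7 in exGF was 0.835-fold of GF (interval 0.623 to 1.12, edgeR adjusted p = 0.804), the member with the lowest adjusted p in that comparison, and in GF it was 1.09-fold of CON (interval 0.823 to 1.44). The low GF1 library had the lowest share of mitochondrial counts of all libraries, 5.68%, and the high GF2 library the highest, 9.80%. GFR3 and GFR4, with the next lowest Tlr7, had 6.12% and 6.13%. The part of this share in the level of Tlr7 was not tested.

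Tlr9 (chr9:106222598-106226883, plus strand) was close to even between groups. Its CPM was 1.03, 1.32, 1.33 and 1.33 in CON, 1.04, 1.75, 1.40 and 0.771 in GF, and 1.24, 1.34, 1.73 and 1.02 in exGF. The GF range enclosed those of CON and exGF. Tlr9 in GF was 1.0-fold of CON, the smallest estimate in the set, but with 14 to 49 counts per library its interval was 0.653 to 1.53, and the sign of the estimate turned under 8 other ways of processing the same libraries.

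Myd88 (chr9:119335934-119341411, minus strand) serves most Toll-like receptors and the interleukin 1 receptor family. Its CPM was 6.65, 5.16, 5.66 and 5.26 in CON, 6.10, 5.06, 4.24 and 4.46 in GF, and 5.64, 4.62, 5.87 and 6.03 in exGF. In GF 3 of 4 libraries lay below all CON libraries, and GF1 lay within their range. Myd88 in GF was 0.870-fold of CON (interval 0.681 to 1.11, edgeR adjusted p = 0.774) and in exGF 0.971-fold (interval 0.784 to 1.20, edgeR adjusted p = 0.997). It shares 290 exon bases with Acaa1a on the other strand, which had 264 to 682 counts per library, and pairs from the shared stretch cannot be assigned by strand.

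Inside the cell, NOD1 senses a peptidoglycan fragment found mainly in Gram-negative bacteria, and Nod1 (chr6:54923949-54972612, minus strand) had the lowest p of the 10 members. Its CPM was 3.65, 4.05, 3.79 and 5.26 in CON, 6.17, 2.95, 4.51 and 4.57 in GF, and 5.51, 5.14, 4.91 and 4.84 in exGF. The exGF libraries were all above 3 of the 4 CON libraries, but CON4 lay within the exGF range. Nod1 in exGF was 1.21-fold of CON with an interval of 0.961 to 1.53 (log2 change 0.28, SE 0.15, unadjusted p = 0.0976, edgeR adjusted p = 0.952). Without CON4 the log2 change was 0.40, with an unadjusted p of 0.0237 and an edgeR adjusted p of 0.519. In GF Nod1 was 1.07-fold of CON (interval 0.777 to 1.48), with the highest and the lowest library of all groups.

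Nod2 (chr8:88647315-88688474, plus strand), the receptor for muramyl dipeptide of nearly all bacteria, had the fewest counts of the set, 7 to 25 per library. Its CPM was 0.574, 0.939, 0.682 and 0.686 in CON, 0.818, 0.671, 0.860 and 0.386 in GF, and 0.663, 0.864, 0.883 and 0.851 in exGF. The values of the 3 groups overlapped. Nod2 in exGF was 1.20-fold of GF (interval 0.741 to 1.95) and 1.13-fold of CON (interval 0.738 to 1.73), and in GF it was 0.945-fold of CON (interval 0.561 to 1.59), so a change of 1.5-fold would lie within each of these intervals.

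Pglyrp1 (chr7:18871331-18890459, plus strand) encodes a secreted protein that binds peptidoglycan and is known from the granules of neutrophils. Its CPM was 3.04, 4.65, 2.63 and 2.25 in CON, 3.05, 3.58, 2.74 and 4.02 in GF, and 2.82, 2.42, 3.29 and 3.54 in exGF. CON held both the highest and the lowest library. Pglyrp1 in GF was 1.07-fold of CON (interval 0.751 to 1.53, edgeR adjusted p = 0.938) and in exGF 0.962-fold (interval 0.675 to 1.37, edgeR adjusted p = 0.997).

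**Figure D3:**
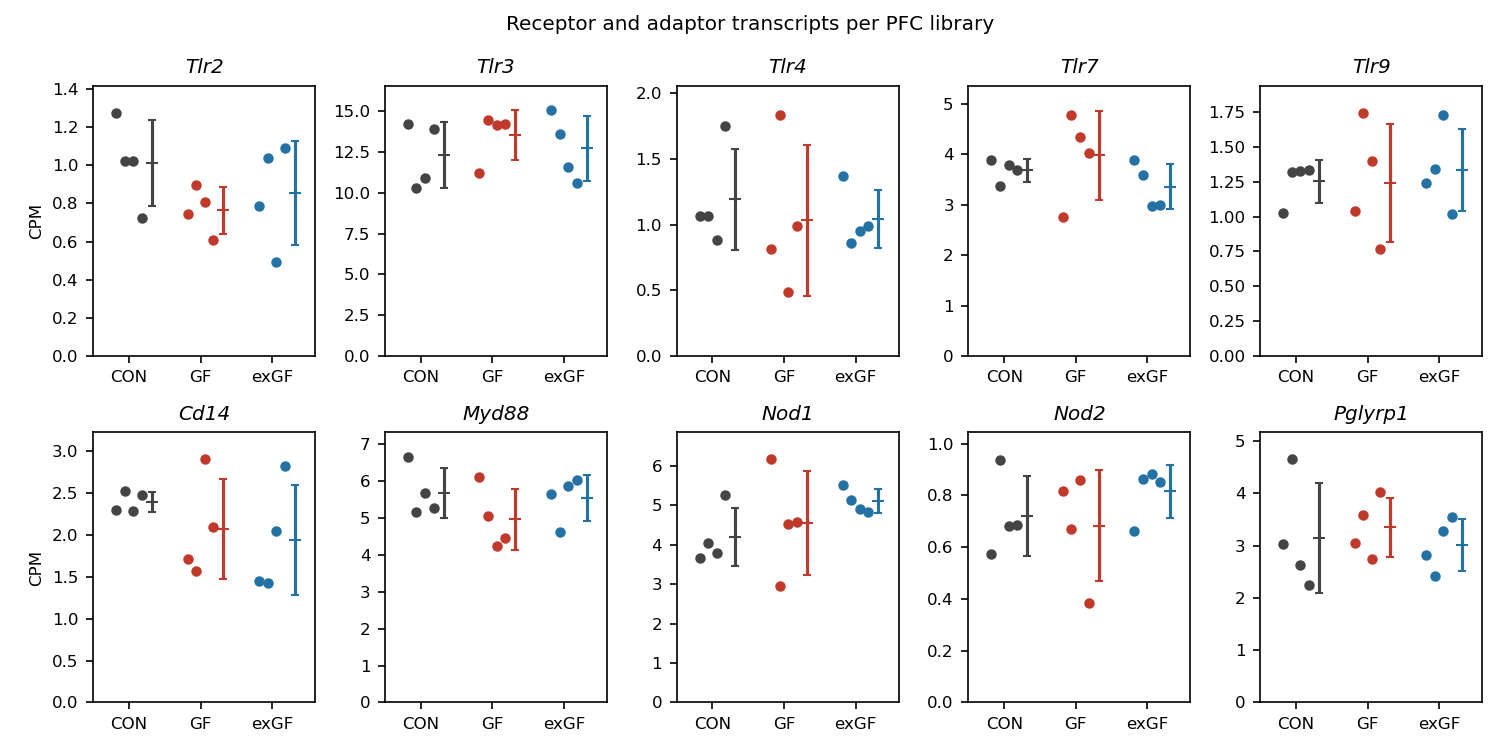
CPM of each member in every library, by group (CON black, GF red, exGF blue), with the group mean and SD (n = 4) beside the points. Axes start at 0. The groups overlap for all 10 members, with the CON points of Cd14 (2.29 to 2.52) closer together than those of GF (1.57 to 2.90) and exGF (1.43 to 2.83).

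The wider pathway was read from 10 lists of 105 genes, of which 78 could be tested in GF against CON, 77 in exGF against CON and 75 in exGF against GF. In edgeR's test 0 rose and 1 fell in GF, and 0 were called in each of the other comparisons. At an unadjusted p under 0.05, 3 genes were higher and 6 lower in GF (11.5% of those tested, against 8.69% of all genes), 0 were higher and 5 lower in exGF (6.49%, against 5.33%), and 2 were higher and 1 lower in exGF against GF (4.00%, against 6.65%). The median log2 change of the pathway genes was -0.08, -0.02 and 0.04 in these comparisons, beside 0.01, -0.01 and 0.00 over all genes. Single lists leaned further. In GF 8 of 8 NF-kB and IRF transcription factors were lower (median -0.13), 1 of them at an unadjusted p under 0.05. So were 9 of 11 adaptors and accessory proteins (median -0.06), 3 of them at an unadjusted p under 0.05. In exGF against CON 9 of 10 adaptors and accessory proteins were lower (median -0.12). In exGF against GF 7 of 8 transcription factors (median 0.09) and 12 of 15 kinases and ligases (median 0.08) were higher. These leanings were not tested. The inhibitors were split, with 4 higher and 4 lower in each of the 3 comparisons. Most genes named below were picked for the lowest p of their list, which itself favours groups that do not overlap. Over all genes, groups did not overlap for 5.08% in GF against CON, 3.31% in exGF against CON and 3.32% in exGF against GF. Besides those stated below, Tab1 and Ikbke did not overlap in GF against CON, and Naip2 did not in exGF against CON.

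The gene that fell was Lyz2 (chr10:117277331-117282321, GRCm38), lysozyme of macrophages, which cleaves peptidoglycan. Its CPM was 11.7, 12.97, 12.2 and 10.4 in CON, 7.36, 7.52, 7.63 and 7.82 in GF, and 6.88, 4.15, 7.14 and 8.75 in exGF. Every GF and every exGF library lay below every CON library. The log2 change in GF was -0.64 (SE 0.12, edgeR adjusted p = 0.0522) and in exGF -0.81 (SE 0.18, edgeR adjusted p = 0.334). The call in GF held in 10 of 18 other ways of processing, but in only 2 of the 8 that left out a library, where the edgeR adjusted p reached 0.169 without GF replicate 3. Lyz1, a near-identical neighbour, had at most 1 count per library, and pairs aligned to several places were not counted. Pglyrp2, Pglyrp3 and Pglyrp4, the relatives of Pglyrp1, had at most 1 count per library.

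Among the other Toll-like receptors 5 of 7 could be tested and 0 were called. Tlr13, a receptor for bacterial ribosomal RNA, averaged 2.80 ± 0.401 (CON), 2.03 ± 0.691 (GF) and 1.94 ± 0.258 (exGF) CPM (SD, n = 4 each), with an edgeR adjusted p of 0.773 in exGF against CON. Tlr12, a receptor for profilin of protozoa, had 0.634 ± 0.230 CPM in GF and 1.11 ± 0.541 in exGF (log2 change 0.84, edgeR adjusted p = 0.739). The exGF mean rested on GFR4, at 1.91 CPM beside 0.704 to 0.95 in the others, and without it the log2 change was 0.43 (SE 0.38, edgeR adjusted p = 0.788). Tlr8 and Tlr11 were below the filter, with at most 8 and 1 counts per library.

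Of the adaptors and accessory proteins 0 were called among 11 tested in GF against CON. Cd180, a Toll-like receptor homologue, had the lowest p of this list in GF against CON and in exGF against GF. Ly86, which encodes MD-1, the partner of CD180, had the lowest p in exGF against CON. Cd180 averaged 2.06 ± 0.435 (CON), 1.06 ± 0.411 (GF) and 1.72 ± 0.557 (exGF) CPM, with a log2 change of -0.94 in GF (SE 0.31, edgeR adjusted p = 0.364). Ly86 averaged 9.83 ± 1.04 (CON), 7.45 ± 1.37 (GF) and 6.36 ± 1.04 (exGF) CPM, with a log2 change of -0.63 in exGF (SE 0.14, edgeR adjusted p = 0.334). All exGF libraries of Ly86 lay below all CON libraries, and DESeq2 called it in exGF (adjusted p = 0.0384 with 2 groups and 0.0505 with all 12 libraries). Unc93b1 of this list was lower in GF against CON (log2 change -0.36, SE 0.13, edgeR adjusted p = 0.402). In exGF against CON its log2 change was -0.43 (SE 0.12, edgeR adjusted p = 0.591). Both changes of Unc93b1 had an unadjusted p under 0.05.

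Downstream of the receptors, 0 of 15 kinases and ligases and 0 of 8 transcription factors were called in any comparison. Tab1, which activates the kinase TAK1, averaged 29.1 ± 1.87 (CON), 24.8 ± 2.34 (GF) and 26.4 ± 1.5 (exGF) CPM (edgeR adjusted p = 0.523 in GF). Ikbke, an NF-kB and interferon kinase, had 0.822 ± 0.185 CPM in GF and 1.41 ± 0.639 in exGF (edgeR adjusted p = 0.739). Irf7, the interferon factor that MYD88 activates behind TLR7 and TLR9, averaged 2.44 ± 0.585 (CON), 1.40 ± 0.215 (GF) and 2.3 ± 0.402 (exGF) CPM. All 4 GF libraries of Irf7 lay below all CON and all exGF libraries, with log2 changes of -0.79 in GF against CON (SE 0.25, edgeR adjusted p = 0.346) and 0.70 in exGF against GF (SE 0.23, edgeR adjusted p = 0.736). Irf5, a further factor of this pathway, had 4.61 ± 0.579 CPM in CON and 4.18 ± 0.557 in exGF (edgeR adjusted p = 0.973).

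Among the 8 inhibitors of the pathway 0 were called. Tnfaip3, which encodes the deubiquitinase A20, averaged 8.09 ± 0.934 (CON), 10.8 ± 1.85 (GF) and 8.91 ± 0.979 (exGF) CPM, a log2 change of 0.41 in GF (SE 0.15, edgeR adjusted p = 0.438). Sigirr, which encodes an inhibitory receptor of the interleukin 1 family, had 1.0 ± 0.254 CPM in GF and 1.64 ± 0.263 in exGF (edgeR adjusted p = 0.736).

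Other cytosolic sensors gave 0 calls among 14 NOD-like receptors and partners and among 7 nucleic acid sensors. Nlrp1a, an inflammasome sensor, had 0.312 ± 0.150 CPM in CON and 0.695 ± 0.197 in GF (edgeR adjusted p = 0.430), on 5 to 18 counts per library. Naip2, a sensor of bacterial secretion systems, had 1.05 ± 0.154 CPM in CON and 0.686 ± 0.185 in exGF (edgeR adjusted p = 0.924). Aim2, the DNA sensor of an inflammasome, averaged 1.40 ± 0.218 (CON), 2.20 ± 0.284 (GF) and 1.37 ± 0.364 (exGF) CPM. Its GF libraries lay above all CON and all exGF libraries, with log2 changes of 0.66 in GF against CON (SE 0.23, edgeR adjusted p = 0.411) and -0.69 in exGF against GF (SE 0.26, edgeR adjusted p = 0.736). Tmem173, which encodes STING, had 6.33 ± 0.459 CPM in CON and 5.15 ± 0.791 in exGF (edgeR adjusted p = 0.924).

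The C-type lectin list gave 0 calls among 4 genes tested. Card9, an adaptor of fungal receptors, had 2.47 ± 0.426 CPM in CON and 1.75 ± 0.588 in GF (edgeR adjusted p = 0.637), and its partner Malt1 had 4.57 ± 0.963 in GF and 5.86 ± 1.67 in exGF (edgeR adjusted p = 0.764). The inflammatory products of these pathways were mostly below the filter: 11 of 16 could not be tested, among them Tnf with at most 5 counts per library and Il6 with at most 1. Il1b averaged 0.569 ± 0.253 (CON), 0.690 ± 0.335 (GF) and 0.410 ± 0.0948 (exGF) CPM. Lcn2, an iron-scavenging protein of the acute phase, had 1.26 ± 1.45 CPM in CON, where CON4 alone had 3.43, and 0.427 ± 0.490 in GF. Its log2 change in GF was -1.49 (SE 0.78, edgeR adjusted p = 0.619), and without CON replicate 4 it was -0.28 (SE 0.68, edgeR adjusted p = 0.925).

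**Figure D4:**
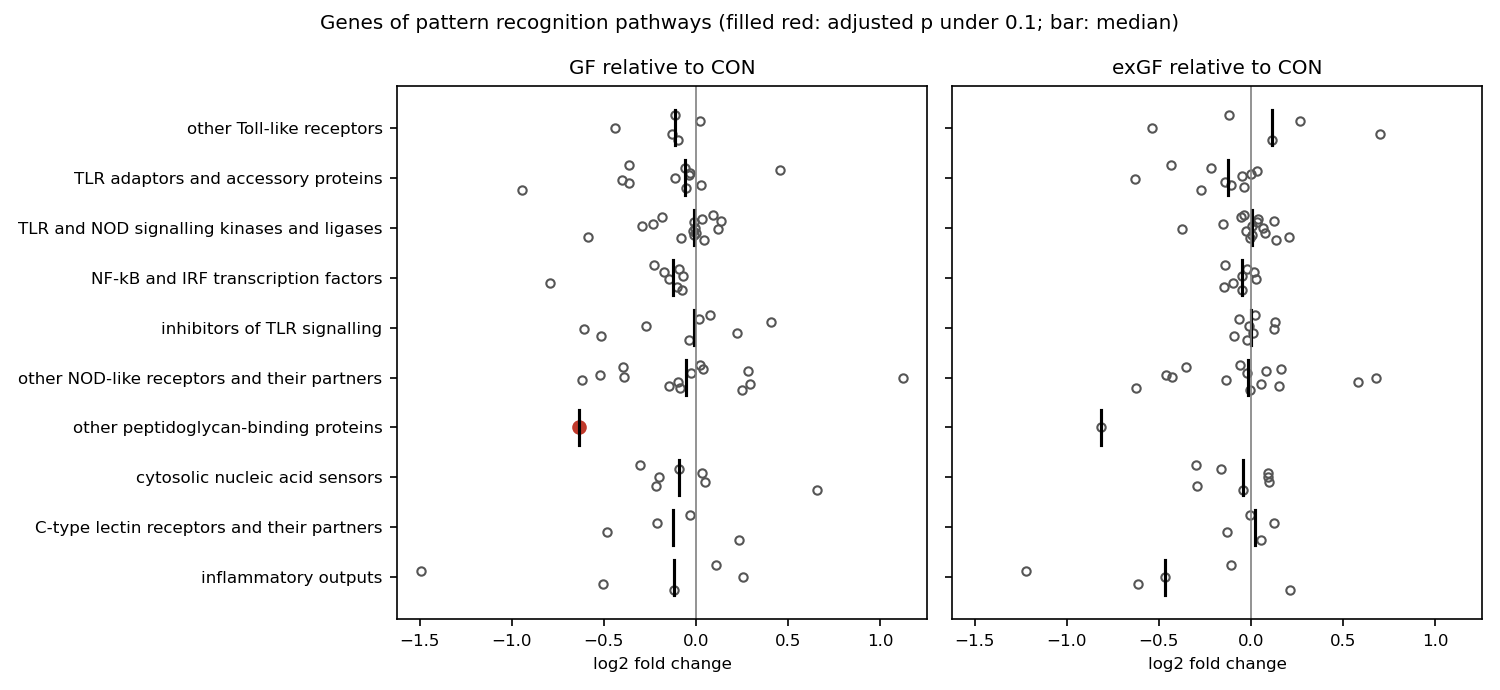
Log2 fold change of each tested gene of the 10 pathway lists, in GF and in exGF against CON. Each circle is a gene, the bar is the median of the list, and the filled red circle is Lyz2 (-0.64), the only call at an edgeR adjusted p under 0.1.

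Markers of microglia, border macrophages and neutrophils, which are known to carry these receptors, were not level across the groups. Microglia markers were present throughout (18 of 18 tested), with a summed level of 587 to 694 CPM in CON, 535 to 608 in GF and 486 to 543 in exGF. In GF 14 of 18 were lower with 1 called, C1qb (37.8 ± 2.64 CPM in CON and 26.1 ± 1.76 in GF). The exGF group had 17 of 18 lower with 0 called and 10 at an unadjusted p under 0.05. Border macrophage markers summed to 31.9 to 36.1 CPM in CON, 24.0 to 25.7 in GF and 24.5 to 34.7 in exGF, and those of neutrophils, which carry Tlr2, Cd14 and Pglyrp1, to 3.57 to 5.97, 1.56 to 2.38 and 2.20 to 6.22. Of the 12 neutrophil markers 5 passed the filter and 4 had at most 3 counts in every library. Elane was at 0 to 1 and Ly6g at 0 to 1 counts. In GF against CON 3 neutrophil markers could be tested and 3 were lower, with 0 called and 2 at an unadjusted p under 0.05. Those 2 were S100a9 (1.07 ± 0.344 CPM in CON and 0.351 ± 0.275 in GF) and Ngp (0.660 ± 0.161 and 0.190 ± 0.0933). Both rested on few counts, 0 to 40 and 1 to 25 per library. In exGF against CON 5 of 5 were lower, with 0 called and 0 at an unadjusted p under 0.05. In these bulk samples fewer cells of a type, less RNA per cell and a difference in the tissue taken cannot be told apart. The part of these markers in the values of Lyz2, and of any but the microglia markers in those of the members, was not tested. Astrocyte markers, set beside Tlr3, summed to 3630 to 4148 CPM in CON, 3656 to 4074 in GF and 3378 to 3956 in exGF. In GF 3 of these 6 were higher and 3 lower (median log2 change -0.02), and in exGF 5 of 6 were lower, 2 of them at an unadjusted p under 0.05 and 0 called. Meningeal markers were lower in both groups, 6 of 6 in GF with 1 called (Col1a2) and 4 at an unadjusted p under 0.05, and 6 of 6 in exGF with 0 called and 5 at an unadjusted p under 0.05. Striatal markers summed to 129 to 266 CPM in CON, 150 to 163 in GF and 130 to 264 in exGF, with 0 called in either comparison with CON. Oligodendrocyte markers gave the most calls of the marker lists, with 6 of 6 higher and 4 called in GF (median log2 change 0.82) and sums of 2018 to 2494 CPM in CON, 3124 to 5266 in GF and 2000 to 3364 in exGF. Neuronal markers were high in every library, as the label of the tissue requires, with sums of 10770 to 12217 CPM in CON, 12584 to 13253 in GF and 11443 to 12886 in exGF. In GF 8 of 8 neuronal markers were higher, with 0 called and 2 at an unadjusted p under 0.05.

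The members were then set beside the microglia level of each library, the mean log2 CPM of the 18 markers, which was 4.75 ± 0.142 in CON, 4.6 ± 0.0833 in GF and 4.49 ± 0.0715 in exGF. None of the 10 relations passed adjustment. Nod1 ran against the microglia level (Pearson r = -0.60, permutation p = 0.0402, adjusted 0.403, and Spearman rho = -0.66, permutation p = 0.0218, adjusted 0.218), with r = -0.71 without the 2 libraries farthest from the median level and -0.48 once group means were removed. Pglyrp1 had r = 0.45 (permutation p = 0.136, adjusted 0.470) and rho = 0.23 (permutation p = 0.471, adjusted 0.751). Without the 2 farthest libraries its r was -0.22, so the r over 12 libraries rested on these. With group means removed r was 0.71, which was not recomputed without them. Tlr2 had r = 0.45 (permutation p = 0.142, adjusted 0.470) and rho = 0.40 (permutation p = 0.198, adjusted 0.660), with r = 0.74 without the 2 farthest libraries and 0.33 with group means removed. For the other 7 members r lay between -0.33 (Tlr3) and 0.41 (Cd14) and rho between -0.17 (Tlr3) and 0.46 (Cd14), with permutation p of r from 0.188 to 0.730 and adjusted from 0.470 to 0.730. With 12 libraries and few counts, relations of this kind could be missed, and even r = -0.60 (Nod1) did not pass adjustment.

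**Figure D5:**
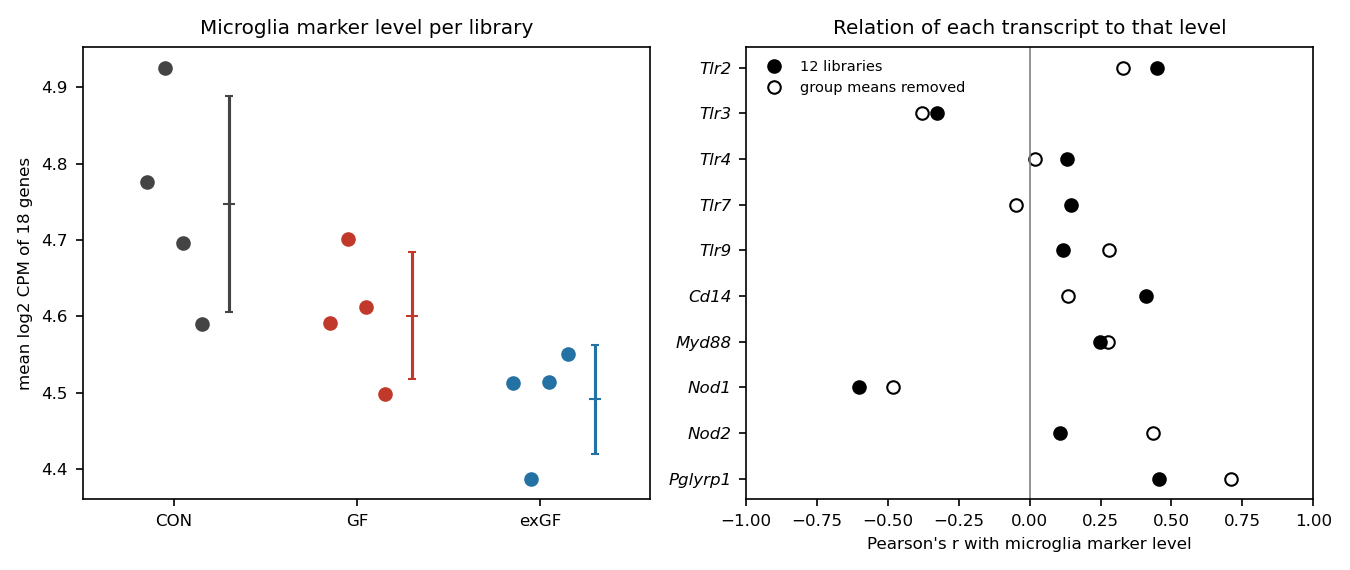
Left, the microglia marker level (mean log2 CPM of 18 genes) in each library with the group mean and SD (n = 4 each). Right, Pearson's r of each member with that level over 12 libraries, before (filled) and after (open) removal of the group means. The exGF libraries have the lowest mean level (4.49), and the members spread on both sides of 0, from -0.60 (Nod1) to 0.45 (Pglyrp1).

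The 10 members showed no clear sign of varying as a block across libraries. With 12 libraries and counting CVs of up to 30.1%, shared variation could be missed, so its absence is not shown. Of the 45 pairs among them, which were looked at after the other results, 19 had a positive r, the median r was -0.08, 3 had an unadjusted permutation p under 0.05 and 0 passed adjustment. The highest was that of the RNA receptors Tlr3 and Tlr7 (r = 0.73, permutation p = 0.00833, adjusted 0.375, and rho = 0.74, permutation p = 0.00788, adjusted 0.355), with r = 0.70 without the 2 farthest libraries and 0.76 with group means removed. Both were low in GF1, GFR3 and GFR4, the libraries with the lowest mitochondrial shares (5.68% to 6.13%). The part of this share in the pair was not tested.

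The genes whose log2 CPM ran closest to each member over the 12 libraries, among 16032 genes, are given as a description. The libraries share depth and tissue composition, and the best of so many genes is high by selection. For Tlr3 they were Idi1, Ppp2r3a and Kif5c (r = 0.92 to 0.93), and for Tlr7 Dhx15, mt-Co1, a mitochondrial gene, and Mfsd8 (r = 0.94 each). For Tlr4 they were March1, Gm26534 and Egfr (r = 0.86 to 0.89), for Tlr2 4930523C07Rik, Gm15879 and 2310040G24Rik (r = 0.79 to 0.81), and for Tlr9 Hist1h4i, Adnp and Gm15777 (r = 0.81 to 0.82). Cd14 ran with E130309D02Rik, Supt7l and Lrrc1 (r = 0.86 to 0.87), and Myd88 with C630043F03Rik, Il34, a ligand of the microglial receptor CSF1R, and Il1rl2 (r = 0.86 to 0.93). Nod1 ran with Tbcd, Wdr33 and Gm26737 (r = 0.89 to 0.91), Nod2 with Ypel4, Slc7a10 and Gm26614 (r = 0.92 to 0.93), and Pglyrp1 with Gstz1, Ift22 and Hpcal1 (r = 0.87 to 0.92). No gene of the microglia list was among them, which was likely beforehand, since that list holds 18 of the 16032 genes.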

How the data were processed

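RNA sequencing was done on PFC libraries of 12 RNA pools, 4 in each of 3 groups. The authors trimmed the read pairs with Trimmomatic (0.32), aligned them with STAR to GRCm38.p3 and counted pairs per Ensembl 78 gene with HTSeq (0.6.0), without regard to strand, per the submitters' processing notes and the methods; the STAR version given differs between these sources. The deposited values are raw counts. Rows of pairs given to no gene were left out: 4.57% to 7.31% of each library's counts outside genes, 1.10% to 1.32% on several genes and 13.0% to 19.2% aligned to several places. The columns GFR1 to GFR4 were taken as exGF, since no other samples remain for them.

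For each pair of groups, filterByExpr removed low genes, TMM set the scale and glmQLFTest of edgeR (4.0.16, in R 4.3.3) gave p, adjusted by Benjamini-Hochberg and called under 0.1, the threshold of the methods. The study's DESeq2 (1.42.0 here), limma-voom (limma 3.58.1) and other settings were alternatives. CPM used TMM library sizes over 12 libraries, and FPKM the exon length of GENCODE M21, which named 40340 genes. Permutation tests were two-sided with 100000 resamples and a prior count of 1 for log2 CPM. The processing was tested on simulated data. Named were all members, in each pathway list any called gene and that with the lowest p in each comparison, and the 3 genes most correlated with each member. Other genes, such as those at most at a few counts and the cell markers, were named after their values were seen. The members and lists were chosen with earlier results of these data known. Counts limit precision to 7 to 365 per member and library, and p-values measure the spread between pools.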

Additional observations from a re-analysis of the deposited data

Results flagged for a closer look

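Of 33 groups of 4 values examined (10 members and the microglia level in 3 groups), 3 held a library whose gap to the nearest other, as a share of the range, passed Dixon's 95% critical value for 4 samples, where chance gives about 1 in 20. The GF1 library had the lowest Tlr3 level of its group, 11.2 CPM, while the others had 14.2 to 14.5. It was also the library with the fewest counts on genes and the lowest mitochondrial share. The CON1 library had 1.03 CPM of Tlr9 beside 1.32 to 1.33 in the other CON libraries. The exGF library GFR1 had 0.663 CPM of Nod2 beside 0.851 to 0.883 in the others. Nod2 had 16 counts in GFR1 and Tlr9 25 in CON1, and the cause of these gaps was not tested.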

How the results depend on the processing

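No member was called in any comparison under any alternative, with the lowest edgeR, limma or DESeq2 adjusted p at 0.506 in GF against CON, 0.519 in exGF against CON and 0.495 in exGF against GF. At a minimum of 10 counts in every library Tlr4 and Nod2 could not be tested in GF against CON and exGF against GF. Of the members' fold changes 265 kept their sign and 11 turned, all near 0: Tlr9 in GF had a log2 change of -0.00413 (RLE), -0.0139 (upper quartile), -0.0178 (no filter), -0.00673 (10 counts), -0.0330 (limma-voom), -0.00192 and -0.000211 (DESeq2, 2 groups and 12 libraries) and -0.0483 (replicate block), Pglyrp1 in exGF against CON 0.00928 (limma-voom), and Tlr4 in exGF against GF 0.00219 (upper quartile) and 0.0907 (limma-voom). With the median of the microglia markers r was -0.0678 for Tlr4, -0.0894 for Tlr7 and -0.0506 for Tlr9.

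The count over all genes depended on the setting. In GF it was 39, and 221 without a filter, 195 and 163 with DESeq2 (2 groups, 12 libraries). In exGF against CON it was 11, and 48 without a filter, 7 at 10 counts, 52 and 50 with DESeq2. In exGF against GF it was 0 (1035 genes at an unadjusted p under 0.05), and 32 without a filter, 2 in a single fit of 12 libraries, 14 and 12 with DESeq2. The pathway count in GF was 1, Lyz2, and 0 in a single fit, with the replicate block or at 0.05. In exGF it was 0, and 1 without a filter (Lyz2) and 2 with each DESeq2 fit (Lyz2 and Ly86). The cause of these differences was not tested.

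Leaving out each library gave 27 to 60 calls in GF, 8 to 14 in exGF against CON, 0 to 7 in exGF against GF, and 0 to 1 pathway calls in GF. Member changes kept their sign in 212 such cases and turned in 28. In GF against CON the log2 change ran from -0.65 to 0.0690 for Tlr4, -0.23 to 0.17 for Tlr9, -0.0787 to 0.27 for Nod1, -0.22 to 0.11 for Nod2 and -0.0285 to 0.35 for Pglyrp1. In exGF against CON it ran from -0.0419 to 0.13 for Tlr3, -0.34 to 0.0416 for Tlr4, -0.0734 to 0.21 for Tlr9, -0.0800 to 0.0513 for Myd88 and -0.19 to 0.20 for Pglyrp1. In exGF against GF it ran from -0.00242 to 0.34 for Tlr2, -0.26 to 0.45 for Tlr4, -0.0867 to 0.31 for Tlr9 and -0.33 to 0.13 for Cd14.

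CON and GF libraries share replicate numbers, but over the genes kept same-numbered libraries did not deviate together (r of -0.0321, -0.0539, -0.0434 and 0.0258). Whether they share a batch in part of the genes was not tested. With the replicate block 51 genes and no member were called in GF. No such block was fitted for exGF, because the numbers of its columns GFR1 to GFR4 are not matched to samples.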
